A study of Mus musculus with 14 samples.

Results

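JAK, STAT and SOCS genes encode the kinases, transcription factors and feedback inhibitors that carry cytokine signals in lymphocytes. The 10 genes described here, taken by their symbols, were the Janus kinases Jak1 and Jak3, the transcription factors Stat3, Stat4, Stat5a and Stat5b, and the inhibitors Cish, Socs1, Socs2 and Socs3. All 10 were present among the 55291 gene symbols of both deposited tables, and all 10 passed the filter on low counts in both comparisons. Messenger RNA was measured by poly(A) RNA sequencing in 14 mouse libraries from 2 experiments, which asked how acetyl-CoA carboxylase, the enzyme that makes malonyl-CoA for fatty acid synthesis, bears on CD8+ T cells. In the first experiment, splenocytes of OT-1 mice were given 1 µg/mL of the ovalbumin peptide that their T cell receptor recognises. They grew in 200 U/mL recombinant human interleukin-2 for 3 days and, after being split, for 4 days more. The carboxylase inhibitor ND-646 was present at 100 nM for 4 libraries, and DMSO vehicle for 4. In the second experiment, CD8+ T cells were enriched and sorted from 3 MCA205 fibrosarcoma samples and 3 spleen samples of C57BL/6 mice 14 days after the tumour cells were placed under the skin of the flank. The tumour samples are called pooled, without a statement of what was pooled. All groups carry the genotype label WT, and the labels name no age. The first experiment started from whole splenocytes, so its cultures are labelled CD8+ T cells but were not sorted per the protocol.

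Receptors for most interleukins and for interferons have no kinase of their own. Janus kinases bound to their tails phosphorylate STAT proteins, which pair, enter the nucleus and bind palindromes of the form TTCNNNGAA. In CD8+ T cells, JAK1 and JAK3 serve the receptors that share the common gamma chain, such as that for interleukin-2, and act mainly through STAT5. STAT3 serves interleukin-6, interleukin-10 and interleukin-21, and STAT4 serves interleukin-12. CIS, the product of Cish, and the SOCS proteins are induced by STATs and dampen the receptor that induced them, so their mRNA is widely used as a record of recent cytokine signalling.

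Library totals were 23.5 to 33.8 M counts (M, 1e+06) for the cultures and 19.6 to 21.0 M for the sorted cells. Levels are given as CPM, counts per 1000000 after TMM scaling within an experiment. The limit that a count of 0 allows in a library, 3 counts, was 0.0878 to 0.154 CPM and covers counting error only. ND-646 libraries 1 and 4 differed from each other by a chi-square of 5.39 per degree of freedom and libraries 2 and 3 by 3.86, less than libraries across those pairs (7.90 to 12.2). Nothing in the labels ties replicates to separate animals or cultures, so the p-values rest on a spread between libraries that may be technical only. The 17 CD8 identity markers, such as Cd8a, Cd3e and Trbc2, summed to 6981 to 7225 CPM in ND-646 and 7028 to 7387 CPM in vehicle libraries. They summed to 4671 to 6287 CPM in tumour and 10328 to 10403 CPM in spleen libraries. In bulk RNA, fewer cells of a type and less RNA per cell cannot be told apart.

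The first comparison asked how ND-646 altered these transcripts in activated cultures. Changes were small: 6 of the 10 genes were higher with ND-646, namely Jak3, Stat3, Stat4, Stat5b, Cish and Socs3, and 1 was lower, Stat5a. Cish had the largest fold among them, at 1.35-fold, and the other changes were between 1.07-fold and 1.16-fold in size. Jak1, Socs1 and Socs2 did not pass the test. The test was edgeR's quasi-likelihood test with Benjamini-Hochberg adjustment over 14251 genes at 0.05, under which 29.8% of all genes were higher and 26.5% lower. The CPM ranges of the groups did not overlap for 7 of the 10, against 51.1% of all genes. The median log2 fold change was 0.12 over the 10 genes and 0.01 over all genes. None of the 10 passed a test against a minimum change of 1.5-fold, which 1192 genes passed.

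Among the kinases, Jak3, which binds the common gamma chain, stood at 461, 532, 490 and 470 CPM in the ND-646 libraries, against 427, 437, 436 and 456 CPM in the vehicle libraries. The lowest ND-646 library lay just above the highest vehicle library, and the second ND-646 library stood above the rest. Its log2 fold change was 0.15 ± 0.04 (SE; n = 4 each; edgeR adjusted p = 0.00632). Jak1, its partner on those receptors and the kinase of interferon and interleukin-6 receptors as well, measured 373, 372, 383 and 396 CPM with ND-646 and 405, 389, 412 and 405 CPM with vehicle. The ranges overlapped by 1 library in each group, and the log2 fold change of -0.08 ± 0.04 did not pass (edgeR adjusted p = 0.0650). It did pass with DESeq2's size factors (adjusted p = 0.0327) and with DESeq2's Wald test (adjusted p = 0.0170). It also passed with a filter of 1 CPM in every library of a group (adjusted p = 0.0236). The same held without vehicle library 2 (adjusted p = 0.0454) and without ND-646 library 4 (adjusted p = 0.0241). Jak1 passed in none of the other settings, such as no filter on low counts (edgeR adjusted p = 0.172). Scaled so that the CD8 identity markers have the same mean log level in every library, its log2 fold change was -0.03 ± 0.04 (edgeR adjusted p = 0.564).

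Among the transcription factors, Stat4, the factor of interleukin-12 signalling, had the largest fold. Its levels were 189, 183, 178 and 175 CPM in ND-646 libraries and 156, 149, 163 and 160 CPM in vehicle libraries. All ND-646 libraries were above all vehicle libraries, with a log2 fold change of 0.21 ± 0.04 (SE; edgeR adjusted p = 0.000196). Stat3 averaged 274 ± 17.8 CPM with ND-646 and 250 ± 3.81 CPM with vehicle (SD, n = 4 each), a log2 fold change of 0.14 ± 0.04 (edgeR adjusted p = 0.0108). Its ND-646 values of 267, 300, 271 and 259 CPM were led by library 2, against 254, 247, 246 and 252 CPM with vehicle, and without that library the value was 0.08 (adjusted p = 0.0655).

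The paralogs Stat5a and Stat5b, which carry the interleukin-2 signal, moved in opposite directions. Stat5a measured 54.2, 55.5, 57.1 and 53.7 CPM with ND-646 and 59.5, 62.1, 62.0 and 57.3 CPM with vehicle, so that the ranges were separated by a small gap. It fell by 0.13 ± 0.04 on the log2 scale (SE; edgeR adjusted p = 0.0130). Scaled instead so that the 17 CD8 identity markers have the same mean log level in every library, it was -0.08 ± 0.04 and did not pass (adjusted p = 0.136). Stat5b measured 117, 118, 120 and 115 CPM with ND-646 and 111, 105, 110 and 113 CPM with vehicle. The groups did not overlap, and the log2 fold change was 0.10 ± 0.04 (SE; edgeR adjusted p = 0.0240). That call was lost with DESeq2's size factors (adjusted p = 0.0523), its Wald test (adjusted p = 0.0590) and the 1 CPM filter (adjusted p = 0.0544). It was also lost without vehicle library 2 (adjusted p = 0.0867), ND-646 library 1 (adjusted p = 0.0515), 2 (adjusted p = 0.0628) or 3 (adjusted p = 0.0683). Under CD8 identity scaling Stat5b was 0.15 ± 0.04 and passed (edgeR adjusted p = 0.00328).

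Among the inhibitors, Cish encodes CIS, which occupies STAT5 docking sites on receptor tails and is a classical STAT5 target. Its window in the RefSeq promoter table, 250 bases before to 50 after the start in GRCm38.p6, held the STAT palindrome at 2 places, and that of Socs3 held 1. The stretches are shown because no other member's window held the palindrome; the capitals mark it.
Cish, chr9:107296654-107296683, plus strand: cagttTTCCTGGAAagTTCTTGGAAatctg
Socs3, chr11:117969507-117969525, minus strand: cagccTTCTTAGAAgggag
The Cish copies begin at bases 1 and 12 of the transcript, and the Socs3 copy begins 154 bases before the start. TTCNNNGAA is its own reverse complement, so both strands were searched at once. Of 32851 windows of this length in the table, 8.30% held at least 1 copy and 0.457% at least 2. Windows were found for 9 of the 10 genes, and a match in letters is not a measured binding site.

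Cish stood at 572, 596, 586 and 599 CPM in the ND-646 libraries, against 457, 492, 376 and 420 CPM in the vehicle libraries. Every ND-646 library was above every vehicle library, and the vehicle libraries were the more scattered. The means were 588 ± 12.2 CPM with ND-646 and 436 ± 49.9 CPM with vehicle (SD, n = 4 each), a log2 fold change of 0.43 ± 0.07 (SE; edgeR adjusted p = 0.000158). With the sign counted, 87.7% of all tested genes had a lower log2 fold change. Socs3, the inhibitor of gp130-type receptors, measured 34.1, 34.3, 36.1 and 33.2 CPM with ND-646 and 29.9, 30.6, 28.1 and 30.4 CPM with vehicle. It was higher with ND-646 in every library, by 0.21 ± 0.05 on the log2 scale (SE; edgeR adjusted p = 0.00136).

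Socs1, which blocks the kinases themselves and restrains interferon and interleukin-2 signals, stood at 174, 167, 173 and 186 CPM with ND-646 and at 176, 196, 146 and 177 CPM with vehicle. The ND-646 values lay within the vehicle range, with a log2 fold change of 0.01 ± 0.08 (SE; edgeR adjusted p = 0.926) whose sign changed with the scaling. Socs2, best known for restraining growth hormone signalling and a STAT5 target in T cells, measured 94.6, 85.7, 91.1 and 94.2 CPM with ND-646 and 91.0, 93.1, 83.9 and 89.1 CPM with vehicle. Its ranges overlapped too (0.03 ± 0.04; edgeR adjusted p = 0.541). Within the vehicle group, library 2 was highest and library 3 lowest for each of Cish, Socs1, Socs2 and Socs3.

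**Figure D1:**
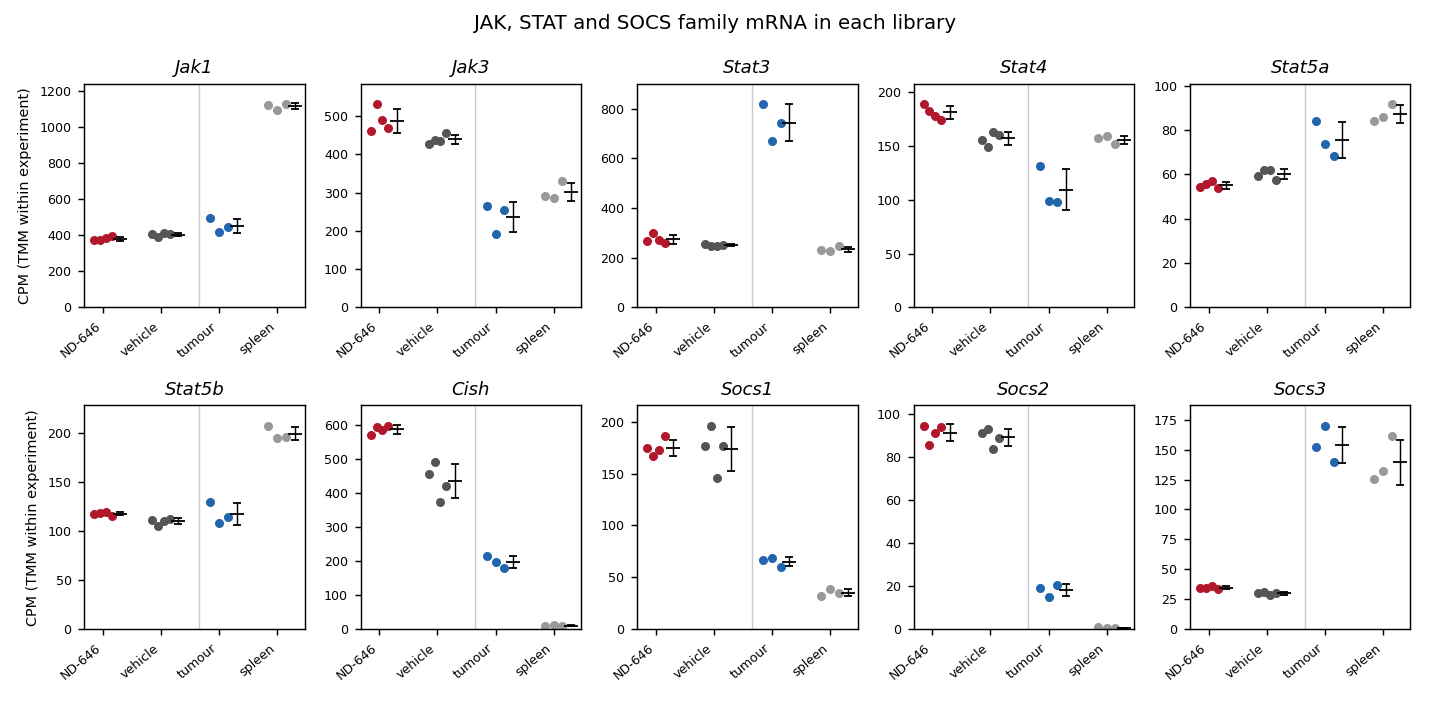
CPM of the 10 genes in each library (linear axes from 0, TMM scaling within each experiment; a grey line separates the experiments). Points are libraries, and the black mark beside them is the mean ± SD (n = 4 for ND-646 and for vehicle, n = 3 for tumour and for spleen). Cish stands at 572 to 599 CPM with ND-646, 376 to 492 CPM with vehicle, 180 to 216 CPM in tumour and 10.03 to 10.94 CPM in spleen.

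Other pathway genes were described from lists chosen with earlier results of these data known. Of the 5 other JAK and STAT genes, 3 were higher and 1 lower with ND-646, with a median log2 fold change of 0.23. Tyk2, a kinase of interferon and interleukin-12 receptors, had 0.31 ± 0.04 (SE) and Jak2, a kinase of cytokine and growth hormone receptors, 0.23 ± 0.05. Of 10 interferon response genes tested, 6 were higher and none lower. Irf9, an interferon-regulated transcription factor, had 0.77 ± 0.07 and Ifit1, an interferon-induced antiviral gene, 0.97 ± 0.22.

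Receptor chains moved both ways, 13 of 23 tested being higher and 4 lower. Il2ra, the alpha chain of the interleukin-2 receptor, averaged 584 CPM with ND-646 and 1009 CPM with vehicle (-0.79 ± 0.04, SE). Ifngr2, a chain of the interferon gamma receptor, averaged 14.1 and 5.22 CPM in ND-646 and vehicle libraries (1.43 ± 0.09). Of 7 STAT4 and interleukin-12 response genes tested, 6 were lower and 1 higher, with a median of -0.64. Furin, a protease, had -0.60 ± 0.04 (SE). Stat4 mRNA itself was higher, as given above.

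STAT5 target genes of T cells were lower in 7 of 15 cases and higher in 4. Il2ra is on that list as well, and Gzmb, a granule protease, had -0.86 ± 0.05 (SE). Of 10 STAT3 targets tested, 4 were lower and 1 higher; Pim1, a kinase on both target lists, had 0.45 ± 0.05, and Fgl2, a fibrinogen-like protein, -0.27 ± 0.03. Of 7 ligands tested, 2 were lower and 1 higher. Ifng averaged 6.78 CPM with ND-646 and 14.4 CPM with vehicle (-1.09 ± 0.13). Il10 was under the limit of 3 counts with ND-646, against 0.657 CPM with vehicle. Of 12 other brakes, 4 were lower and 3 higher, against 3 lower and 5 higher under CD8 identity scaling. The phosphatase genes Dusp2 (-0.47 ± 0.04) and Ptpn6 (-0.44 ± 0.05) had the smallest p-values, and Usp18, an interferon-induced protease gene, had the largest fold (1.33 ± 0.21). Among the other SOCS genes, Socs7 was higher (0.21 ± 0.04), Socs4 was lower (-0.13 ± 0.04) and Socs5 and Socs6 did not pass. Under CD8 identity scaling Socs4 did not pass either (-0.08 ± 0.04; edgeR adjusted p = 0.148), and the other JAK and STAT genes were higher in 3 cases and lower in none. On the remaining lists that scaling left the counts of lower genes as they were and added at most 1 higher gene to each. Of all 14251 genes it called 5004 higher and 3099 lower.

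Markers of other cells moved in the same libraries. Macrophage, monocyte and neutrophil markers were lower with ND-646 in 5 of 6 tested, and their sum was 56.1 to 68.5 CPM in ND-646 and 246 to 259 CPM in vehicle libraries, led by Spp1. C1qa, C1qb, C1qc, S100a8, S100a9 and Cybb were at 0 in all ND-646 libraries. Of these, C1qc, S100a8 and S100a9 were at 0 in all vehicle libraries too, and none of them passed the filter on low counts. B cell markers were lower in 5 of 6 and higher for Ighm, with sums of 148 to 173 CPM with ND-646 and 115 to 131 CPM with vehicle. CD4 and regulatory T cell markers were lower in 5 of 7 and higher for Zbtb7b (0.35 ± 0.04, SE), with sums of 881 to 906 CPM against 1299 to 1321 CPM in vehicle, most of it Il2ra. NK and gamma delta T cell markers were lower in 4 of 6, but Trdc, the most abundant, was higher (0.24 ± 0.04), and the sums were 170 to 179 CPM against 169 to 177 CPM in vehicle. Dendritic cell markers, most abundantly Batf3, were lower in 2 of 4 and higher for Zbtb46 (1.51 ± 0.18), with sums of 56.0 to 69.5 CPM with ND-646 and 65.8 to 73.3 CPM with vehicle. Endothelial markers, led by Pecam1, were lower in 2 of 2, with sums of 28.4 to 32.0 CPM against 41.4 to 47.1 CPM in vehicle. Connective tissue markers were lower in 3 of 6 and higher for Col6a2 (0.44 ± 0.12), and without Thy1, the most abundant, they summed to 10.65 to 11.75 CPM with ND-646 and 11.003 to 12.16 CPM with vehicle. All 10 cell cycle genes were lower, summing to 1356 to 1689 CPM with ND-646 and 2547 to 2675 CPM with vehicle, led by Top2a. Their part in the results was not tested.

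The second comparison set CD8+ T cells of the tumour against those of the spleen. The inhibitors Cish, Socs1 and Socs2 and the factor Stat3 were higher in the tumour, and Jak1, Jak3, Stat4, Stat5a and Stat5b were lower, per total RNA. Cish was 19.1-fold and Socs2 34.2-fold higher, while Jak1 was 2.47-fold lower. Socs3 did not pass the test. The same edgeR test over 15042 genes called 43.6% higher and 40.2% lower. The CPM ranges did not overlap for 8 of the 10, against 86.2% of all genes. The median log2 fold change was -0.04 over the 10 and 0.03 over all genes.

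The RNA of the tumour samples differed in its make-up, which bears on the scaling. Of 17 connective tissue markers tested, 16 were higher in the tumour. Without Thy1, which T cells also express, they summed to 11955 to 17262 CPM in tumour and 2.04 to 18.2 CPM in spleen libraries, led by Col3a1. Lum was at 0 in spleen and did not pass the filter on low counts. Macrophage, monocyte and neutrophil markers were higher in 8 of 12 tested and lower in none, with sums of 346 to 475 CPM in tumour and 9.39 to 12.4 CPM in spleen libraries. Spp1 led them, and Cd14 and C1qa were at 0 in spleen. S100a8 and Ms4a7 were at 0 in spleen too, but did not pass the filter on low counts. All 17 CD8 identity markers were lower in the tumour, with sums given above. Scaled to these 17 genes, the median of all genes moved by 1.03 on the log2 scale, and 86.2% of called genes were higher, against 52.0% under TMM scaling. The directions of the 10 genes and of the pathway lists are therefore given under both scalings. Under CD8 identity scaling 10642 of the 15042 genes tested were higher and 1705 lower, which is the background for list counts under that scaling. The median log2 fold change over all genes was 1.06 there.

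B cell markers were lower in 5 of 5, at 57.8 to 73.5 CPM in tumour and 803 to 833 CPM in spleen libraries, led by Ighm. NK and gamma delta markers were higher in 6 of 7, at 44.8 to 71.8 CPM against 14.98 to 18.35 CPM in spleen, led by Klre1. CD4 and regulatory T cell markers were higher in 4 of 7, at 371 to 493 CPM against 39.5 to 44.0 CPM in spleen, led by Ctla4, which activated CD8+ T cells also express. Dendritic cell markers were higher in 4 of 6, at 37.2 to 60.9 CPM against 14.5 to 23.3 CPM in spleen, led by Itgax. Endothelial markers were higher in 5 of 6, but Pecam1, the most abundant, was lower, and their sum was 51.1 to 59.4 CPM in tumour and 161 to 172 CPM in spleen. All 10 cell cycle genes were higher, at 2195 to 2394 CPM against 410 to 514 CPM in spleen, led by Top2a. Their part in the results was not tested.

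Cish had the smallest p of the 10. It stood at 216, 197 and 180 CPM in tumour libraries, against 10.03, 10.94 and 10.07 CPM in spleen libraries. The lowest tumour library was far above the highest spleen library. The log2 fold change was 4.25 ± 0.08 (SE; n = 3 each; edgeR adjusted p = 8.68e-10), and 0.259% of all genes had a smaller p. Under CD8 identity scaling it was 5.28 ± 0.14. Ranked by log2 fold change with its sign under TMM scaling, Cish was less unusual, since 88.2% of all genes had a lower value.

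Socs2 stood at 19.1, 14.8 and 20.6 CPM in tumour libraries, from 387, 289 and 430 estimated counts. It was barely present in spleen libraries, at 0.771, 0.400 and 0.399 CPM, from 16, 8 and 8 counts. Each spleen count was above 3, so the gene was detected there, but its low depth limits the precision of the fold. The log2 fold change was 5.10 ± 0.24 (SE; edgeR adjusted p = 5.38e-08), or 6.11 ± 0.26 under CD8 identity scaling. Socs1 measured 66.5, 68.6 and 59.8 CPM in tumour and 32.1, 38.5 and 34.5 CPM in spleen. No tumour library came near the spleen range, and the log2 fold change was 0.89 ± 0.08 (edgeR adjusted p = 4.38e-06), or 1.93 ± 0.15 under the other scaling.

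Socs3 behaved differently from the other inhibitors. Its levels were 152, 170 and 140 CPM in tumour and 125, 132 and 161 CPM in spleen, and the ranges overlapped. The log2 fold change of 0.14 ± 0.10 did not pass (SE; edgeR adjusted p = 0.235). Without spleen library 3 it was 0.28 and passed (adjusted p = 0.0181), and under CD8 identity scaling it was 1.18 ± 0.16 and passed as well (adjusted p = 1.93e-05). The median of all genes under CD8 identity scaling was 1.06.

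Among the transcription factors, Stat3 alone was higher under TMM scaling. It stood at 819, 669 and 742 CPM in tumour and 230, 227 and 246 CPM in spleen, and every tumour library was far above the spleen libraries. The log2 fold change was 1.66 ± 0.08 (SE; edgeR adjusted p = 4.20e-08), or 2.68 ± 0.10 under CD8 identity scaling. Connective tissue and macrophages also express Stat3, and their markers are in these libraries as given above; their part was not tested.

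The other 3 factors were lower per total RNA and higher per CD8 identity gene. Under CD8 identity scaling the median log2 fold change of all genes was 1.06, above the value of each of the 3. Stat4 measured 131, 99.3 and 98.2 CPM in tumour and 157, 159 and 152 CPM in spleen, with no overlap. It fell by 0.51 ± 0.11 on the log2 scale (SE; edgeR adjusted p = 0.00172), but under CD8 identity scaling the value was 0.50 ± 0.11 (adjusted p = 0.000891). Stat5b measured 129, 108 and 114 CPM in tumour and 207, 195 and 196 CPM in spleen, again with no overlap. It fell by 0.77 ± 0.07 (edgeR adjusted p = 4.72e-06), against 0.25 ± 0.10 higher under CD8 identity scaling (adjusted p = 0.0397).

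Stat5a measured 84.2, 73.8 and 68.1 CPM in tumour and 84.1, 85.7 and 91.8 CPM in spleen. The first tumour library lay within the spleen range, and the others were below it. It fell by 0.21 ± 0.08 (SE; edgeR adjusted p = 0.0294), against 0.81 ± 0.12 higher under CD8 identity scaling (adjusted p = 4.28e-05). The call under TMM scaling was lost with DESeq2's size factors (adjusted p = 0.0938), its Wald test (adjusted p = 0.127) and on leaving out spleen library 1 (adjusted p = 0.0644), 2 (adjusted p = 0.0745) or 3 (adjusted p = 0.160), or tumour library 2 (adjusted p = 0.0931) or 3 (adjusted p = 0.177). The value was -0.15 without spleen library 3 and -0.11 without tumour library 3.

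Jak1 was the only one of the 10 that was lower under both scalings. It measured 495, 417 and 443 CPM in tumour and 1122, 1094 and 1126 CPM in spleen, and no tumour library was near the spleen range. It fell by 1.30 ± 0.07 (SE; edgeR adjusted p = 7.66e-08), and under CD8 identity scaling by 0.28 ± 0.10 (adjusted p = 0.0159). Jak3, whose expression is largely restricted to blood cells, measured 265, 192 and 254 CPM in tumour and 292, 286 and 329 CPM in spleen. The groups were apart, though tumour library 2 was lowest by far. It fell by 0.35 ± 0.12 (edgeR adjusted p = 0.0212), against 0.66 ± 0.11 higher under CD8 identity scaling (adjusted p = 0.000101). The latter value was below the median of all genes under CD8 identity scaling, 1.06. The fall was lost with no filter on low counts (adjusted p = 0.150), without spleen library 3 (adjusted p = 0.102) and without tumour library 1 (adjusted p = 0.0676), and it was -0.19 without tumour library 2.

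**Figure D2:**
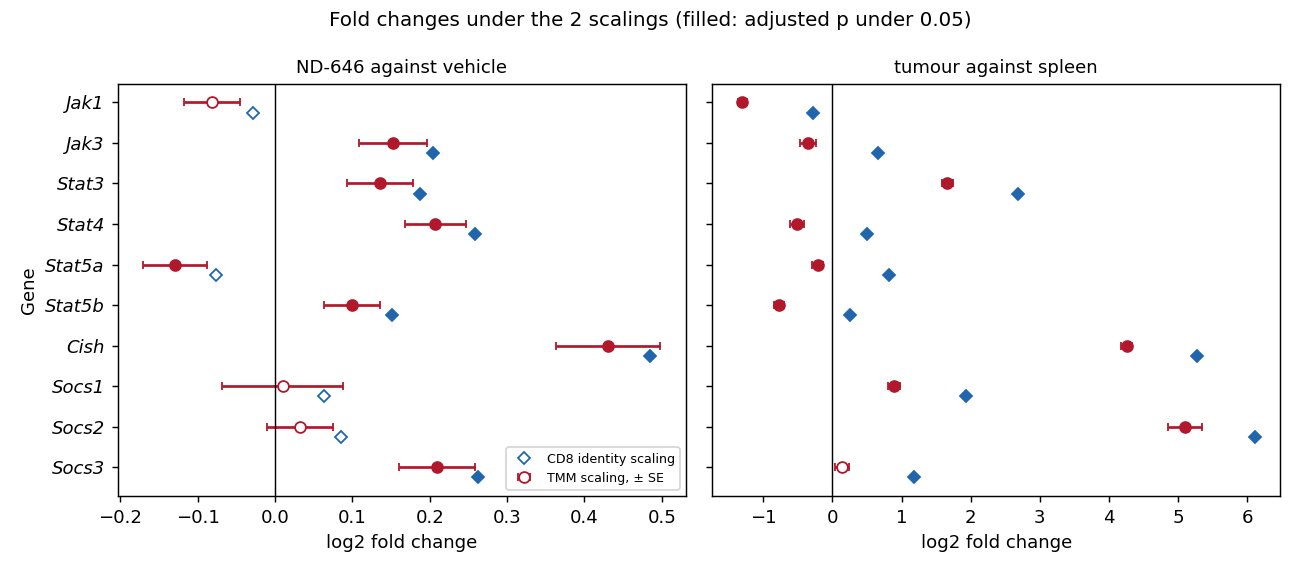
Log2 fold changes of the 10 genes with ND-646 against vehicle (left) and in tumour against spleen (right; the horizontal axes differ). Red circles are TMM scaling ± SE, blue diamonds CD8 identity scaling, and filled symbols have an adjusted p under 0.05. In tumour against spleen, Jak3, Stat4, Stat5a and Stat5b lie below 0 under TMM scaling and above 0 under CD8 identity scaling.

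Of the 5 other JAK and STAT genes, all 5 were lower in the tumour under TMM scaling, with a median log2 fold change of -0.91. Stat6, the interleukin-4 factor, had -0.92 ± 0.06 (SE). Under CD8 identity scaling the median was 0.11, with 2 higher and none lower. Of the other SOCS genes, 3 of 4 were higher, led by Socs5 (1.42 ± 0.06) and Socs6 (0.70 ± 0.09), and 1 lower; all 4 were higher under the other scaling. Of 12 other brakes, 4 were higher and 7 lower, against 8 and none under the other scaling. The phosphatase genes Dusp2 (1.66 ± 0.09) and Ptpn11 (0.74 ± 0.05) had the smallest p-values on that list.

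Receptor chains were higher in 14 of 25 tested and lower in 8, against 17 and 4 under CD8 identity scaling. Of all 15042 genes tested, 10642 were higher and 1705 lower under that scaling. Il6ra, the interleukin-6 receptor, averaged 23.8 CPM in tumour and 245 CPM in spleen (-3.37 ± 0.07, SE), and Il27ra, a receptor chain for interleukin-27, 62.6 and 350 CPM in tumour and spleen (-2.48 ± 0.07). Of 7 ligands tested, 6 were higher and 1 lower under both scalings. Ifng averaged 54.7 CPM in tumour and 0.951 CPM in spleen (5.83 ± 0.18). Csf2, encoding GM-CSF, averaged 6.68 CPM in tumour and was under the limit of 3 counts in spleen.

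All 8 STAT4 and interleukin-12 response genes were higher in the tumour under both scalings, with a median log2 fold change of 2.01 under TMM. Ifng is among them, and Il12rb2, a chain of the interleukin-12 receptor, averaged 119 CPM in tumour and 2.64 CPM in spleen (5.49 ± 0.19, SE). Stat4 itself was lower under TMM scaling only. Of 10 STAT3 targets tested, 8 were higher and none lower, and 10 were higher under CD8 identity scaling. They were led by Timp1, a protease inhibitor that connective tissue also expresses (8.06 ± 0.23), and Fgl2 (5.93 ± 0.24), which macrophages also express.

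STAT5 target genes were higher in 6 of 15 and lower in 5, against 11 and 2 under CD8 identity scaling. That scaling called 10642 of all 15042 genes higher and 1705 lower. Bcl2l1, which encodes the survival protein BCL-XL, had 2.29 ± 0.09 (SE) and Il2ra 4.98 ± 0.19. Interferon response genes were higher in 6 of 12 and lower in 5, against 8 and none under the other scaling. The guanylate-binding protein gene Gbp3 had 1.79 ± 0.06 and the chemokine gene Cxcl9, which macrophages also make, 6.22 ± 0.25.

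**Figure D3:**
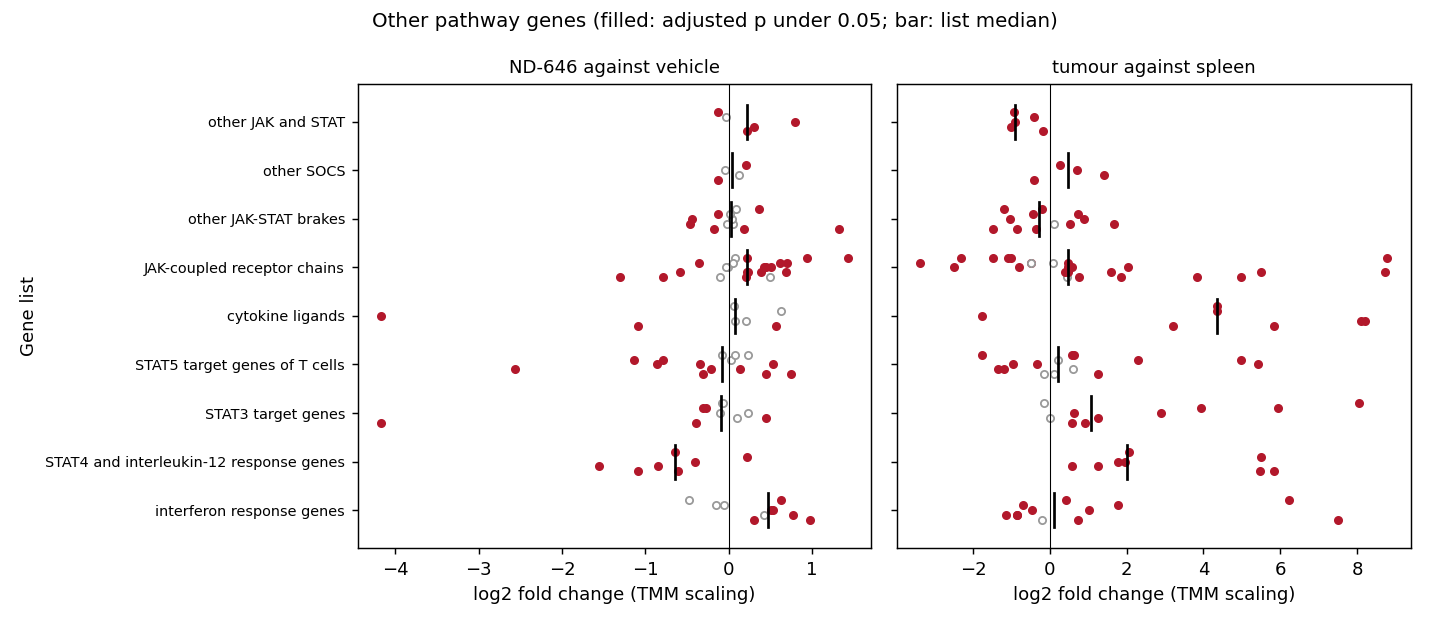
Log2 fold changes under TMM scaling of the tested genes on 9 lists of other JAK-STAT pathway genes, ND-646 against vehicle (left) and tumour against spleen (right). Each point is a gene, filled red where the adjusted p is under 0.05, and the black bar is the list's median, for example -0.64 (left) and 2.01 (right) for the STAT4 and interleukin-12 response genes. Under CD8 identity scaling the medians on the right lie about 1 unit further up. Those of the other JAK and STAT genes (-0.91 to 0.11) and the other brakes (-0.28 to 0.75) then move above 0.

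Across the 4 groups, levels come from tables scaled separately and were not tested against each other. Cish, Socs1 and Socs2 ran in the same order: ND-646 culture, vehicle culture, tumour, spleen, from high to low. Socs1 and Socs2 did not differ between both cultures beyond their spread. Jak1 ran the other way, with spleen highest at 1114 ± 17.4 CPM, then tumour at 452 ± 39.9, vehicle at 403 ± 9.76 and ND-646 at 381 ± 10.9 CPM (SD), the last pair overlapping. Socs3 was higher in both freshly isolated groups, with 154 ± 15.3 CPM in tumour and 140 ± 18.9 CPM in spleen, which overlapped. In culture it was at 34.42 ± 1.248 CPM with ND-646 and 29.8 ± 1.14 CPM with vehicle. These orders were the same under TMM scaling over all 14 libraries and under CD8 identity scaling over all 14. Under the latter, Socs3 no longer overlapped between tumour (202 ± 45.5) and spleen (88.8 ± 12.3, SD).

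Other orders depended on the scaling. Jak3 was highest in the cultures under all 3 scalings, but tumour and spleen changed places under CD8 identity scaling. Stat3 was highest in tumour at 743 ± 75.0 CPM (SD), against 274 ± 17.8 with ND-646, 250 ± 3.81 with vehicle and 234 ± 10.1 CPM in spleen, and the last pair overlapped. Under CD8 identity scaling that pair was apart, at 271 with vehicle and 149 in spleen. Stat4 was highest with ND-646 under all 3 scalings. Vehicle and spleen overlapped at 157 ± 6.30 and 156 ± 3.73 CPM only when scaled within each experiment. They were apart at 152 and 162 CPM under TMM over all libraries, and at 171 and 99.3 under CD8 identity scaling. Stat5a and Stat5b were highest in spleen per total RNA, at 87.2 ± 4.04 and 199 ± 6.90 CPM, and highest in tumour under CD8 identity scaling. Scaled within each experiment, tumour and spleen overlapped for Stat5a, and tumour overlapped both cultures for Stat5b.

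Between genes, levels were set side by side per kilobase of merged coding-transcript exons in GENCODE M21. In ND-646 cultures Cish led with 161 ± 3.33 CPM per kb (SD), followed by Jak3 at 109 ± 7.05 and Jak1 at 76.7 ± 2.19, with Stat5a last at 13.4 ± 0.366. In vehicle cultures the same 3 genes led, with Cish at 120 ± 13.7 and Socs3 last at 11.7 ± 0.447 CPM per kb. In tumour libraries Stat3 led with 119.4 ± 12.04 CPM per kb, and in spleen libraries Jak1 led with 224 ± 3.51. Cish was at 54.1 ± 4.90 CPM per kb in tumour and 2.84 ± 0.140 in spleen, and Socs2 was last in both, at 6.65 ± 1.09 in tumour and 0.191 ± 0.0786 in spleen. Stat5b exceeded Stat5a per kb in all 4 group means. With the longest coding transcript as the length, the genes named here kept their first and last places, except that Socs3 was last and Stat5a ninth in ND-646 cultures.

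Ratios of 2 genes within a library do not move with the scaling, though unequal change of a ratio does not say which gene moved. They are a description with no test. The ratio of Stat5a to Stat5b was 0.463 to 0.477 in ND-646 and 0.510 to 0.590 in vehicle libraries. It was 0.598 to 0.686 in tumour and 0.406 to 0.469 in spleen libraries. The ratio was thus lower with ND-646 and higher in tumour, with no overlap in either comparison.

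The ratio of Jak1 to Jak3 was 0.700 to 0.842 with ND-646 and 0.887 to 0.948 with vehicle, and 1.75 to 2.17 in tumour and 3.42 to 3.84 in spleen. Jak1 was thus the scarcer by counts in culture and the more abundant in freshly isolated cells. The ratio of Stat4 to Stat3 was 0.132 to 0.160 in tumour and 0.617 to 0.701 in spleen, while 0.611 to 0.708 with ND-646 overlapped 0.603 to 0.664 with vehicle. The ratio of Cish to Stat5b was 4.89 to 5.20 with ND-646 and 3.40 to 4.68 with vehicle. It was 1.58 to 1.83 in tumour and 0.0485 to 0.0562 in spleen, a difference of 5.02 on the log2 scale.

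Among the inhibitors, Cish to Socs2 was 6.05 to 6.95 with ND-646 and 4.48 to 5.28 with vehicle, and overlapped in tumour (8.75 to 13.3) and spleen (13.0 to 27.4). Socs1 to Socs3 was 0.404 to 0.437 in tumour and 0.214 to 0.291 in spleen, and 4.78 to 5.61 with ND-646, overlapping 5.18 to 6.40 with vehicle. Socs1 counts thus exceeded Socs3 counts in every culture library and were exceeded by them in every freshly isolated library.

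**Figure D4:**
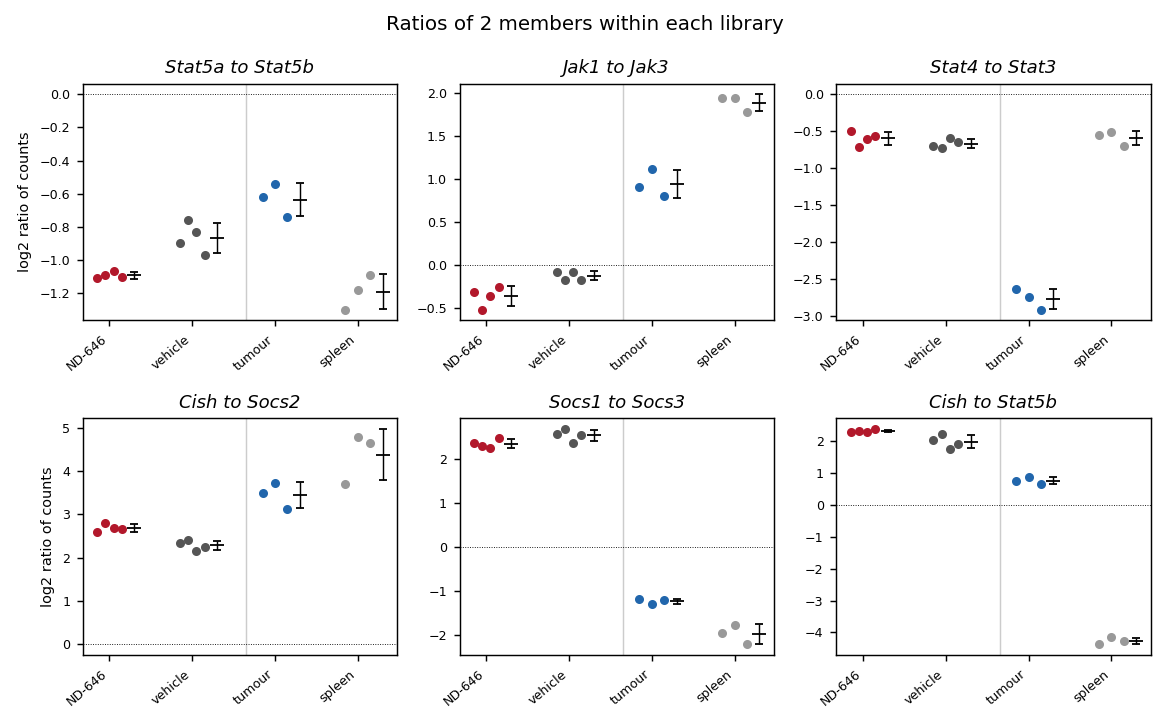
Log2 ratio of the estimated counts of 2 genes in each library (0 means equal counts, dotted line). Points are libraries and the black mark is the mean ± SD (n = 4 for ND-646 and for vehicle, n = 3 for tumour and for spleen). Stat5a to Stat5b is lower with ND-646 than with vehicle and higher in tumour than in spleen, with no overlap in either pair.

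Genes with the most similar profiles were named over the 14 libraries, each profile centred within its experiment, by the root mean square difference in log2 CPM among 9367 genes. The genes nearest to Cish were Gabarapl1, an autophagy gene, at 0.127 and Stx11, a gene of cytotoxic granule release, at 0.136, against a median of 1.42. Kctd17 (0.154) and Ell2 (0.181) were nearest to Socs2, against a median of 1.64. Polr2c and Rabgef1 were nearest to Socs1 (0.0895 and 0.0929) and Gemin2 and Cog6 to Socs3 (0.0730 and 0.0734). Kdm2b (0.0524) and Mapkapk3 (0.0851) were nearest to Stat3, Zbtb25 (0.0531) and Usp25 (0.0591) to Stat4. Stat5a had Gmpr2 (0.0568) and Trmt6 (0.0569), and Stat5b had Wdr91 (0.0410) and Clcn4 (0.0412). Mob3a (0.0433) and Pigo (0.0444) were nearest to Jak1, Dip2b (0.0666) and Dennd4c (0.0818) to Jak3. The 14 points share 4 groups, so the likeness rests mostly on the group differences.

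Some reads cannot be placed with certainty. In GENCODE M21, Stat5b, Stat5a and Stat3 are neighbours on chromosome 11, and the exons of Stat3 and Stat5a overlap by 72 bases on opposite strands. For that pair the libraries were directional, and the estimated counts of Stat3 were whole in every library. Of the 31-base words of Stat5a, 11.5% are also in Stat5b, and 15.1% of those of Stat5b are in Stat5a, so the division of their counts rests on the estimate. Stat4 shares 23.7% with the predicted gene Gm28177, which held 1.85 to 10.2 counts per library. Jak3 overlaps Insl3 on the same strand by 404 bases, and Insl3 held 0.417% to 0.886% as many counts in the 4 groups. Socs2 shares 6.18% of its words with other genes, mostly Gm9847, and Socs1 and Socs3 share none.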

How the data were processed

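Per the labels' protocols, poly(A) libraries were directional and read in pairs of 150 bases. The authors deposited 1 table of estimated counts per experiment; STAR, Salmon and DESeq2 are named in the submitters' processing notes, while versions, build and annotation were not given in the sources used here. Of the values, 9.16% and 9.15% were not whole (tolerance 1e-06), and counts were rounded. Each table was fitted alone in edgeR 4.0.16 (R 4.3.3) with filterByExpr, TMM and a quasi-likelihood test (robust), with p-values adjusted by Benjamini-Hochberg; SE is the log2 fold change over the root of F. The 10 genes and all lists were chosen with earlier results of these data known. From each list the 2 smallest p-values, and from each marker list the most abundant gene, are named; some genes that this rule took are not reported here. Alternatives used DESeq2 1.42.0, limma 3.58.1, other filters and scalings, a 1.5-fold minimum, the replicate block and leaving out each library; the CD8 identity scaling without Thy1 was added after seeing the data. Every replicate pair differed by more than sampling noise (chi-square per degree of freedom 2.41 to 20.0). Overlaps used GENCODE M21, motifs RefSeq's promoter table and figures matplotlib 3.10.9.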

Additional observations from a re-analysis of the deposited data

How the results depend on the processing

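Of the 10 genes, 5 to 8 were called in ND-646 against vehicle and 8 in tumour against spleen on leaving out any 1 library, with all-gene counts of 7424 to 7932 (3856 to 4069 higher, 3514 to 3866 lower) and 12342 to 12928 (6593 to 6851 higher, 5666 to 6077 lower). The 1.5-fold minimum left 0 of the 10 and 1192 genes (489 higher, 703 lower) with ND-646, and 3722 lower genes in tumour, where Jak3, Stat4 and Stat5a lost their calls. Socs1 changed sign with ND-646 under DESeq2's size factors (-0.0051), its Wald test (-0.0045), the 1 CPM filter (-0.0084) and without vehicle library 3 (-0.065) or ND-646 library 4 (-0.029), its range over left-out libraries being -0.065 to 0.075. In tumour against spleen, CD8 identity scaling gave 10642 higher and 1705 lower genes, and reversed Jak3 (0.66), Stat4 (0.50), Stat5a (0.81) and Stat5b (0.25). That scaling put the median of all genes at 1.06, above each of these values. Without Thy1, a choice made after seeing the data, it gave 10833 and 1640, with Jak3 at 0.70, Stat4 at 0.55, Stat5a at 0.86 and Stat5b at 0.30; Stat5a with ND-646 was then -0.10 (adjusted p = 0.0528). The cause was not tested.

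The order of the 4 groups held for 6 of the 10 genes under CD8 identity scaling over all libraries and for 7 under TMM over all. No ratio difference changed sign without any 1 library. On the log2 scale, ND-646 minus vehicle for Stat5a to Stat5b was -0.26 to -0.19, for Cish to Stat5b 0.27 to 0.42 and for Stat4 to Stat3 0.04 to 0.11, and tumour minus spleen for Stat5a to Stat5b was 0.50 to 0.61 and for Cish to Socs2 -1.26 to -0.73. Correlations of same-numbered deviations were -0.121 to 0.066 and those of differently numbered libraries -0.104 to 0.137. With so few libraries they cannot decide whether replicate numbers pair them. The replicate block gave 7864 and 12492 calls and changed no call of the 10. Depth limits Socs2 in spleen, at 8 to 16 counts.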
